A study of Homo sapiens with 12 samples.

Results

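Lactimidomycin (LTM) was compared with trifluridine (TFT) after 24 h of treatment in the human cell line WM35, which is established from a melanoma, by gene expression on Illumina 1-colour BeadChip arrays. The comparison holds 4 of the 12 arrays of the series, 2 labelled LTM 24 h and 2 labelled TFT 24 h, and its arrays were taken by these labels. All 12131 named genes with a probe detected at a detection p under 0.05 on at least 2 arrays were tested. Both drugs were used at doses that inhibit by 75%, set beforehand in tests of 72 h, and the 2 control arrays are of DMSO vehicle cells whose time the labels leave out. The other arrays of the series held either drug at 8 h and enter here through the normalization, the choice of probes, the estimate of the spread, the check of the TFT arrays and 1 comparison of times. Nothing in the labels ties the replicates to separate cultures, so the p-values speak only of the spread among these arrays, which may be technical.

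LTM is a glutarimide natural product that binds the large ribosomal subunit and blocks the elongation step of translation. TFT resembles thymidine, enters DNA in its place and, as its monophosphate, inhibits thymidylate synthase. Stalled translation and DNA damage are sensed by separate systems in human cells: kinases at stalled or collided ribosomes act on the translation factor eIF2 and on stress-activated MAP kinases, while damaged DNA activates the transcription factor p53. Both also feed into shared outputs such as ATF3, the AP-1 factors and inflammatory cytokines, so a set of genes can be shared by the drugs or belong to one of them.

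Between 19485 and 20551 of 47230 probes were detected on an array, and the mean signal of an array lay between 315 and 415. Of 19 melanocyte lineage markers, 8 were detected on all 6 of the control and 24 h arrays, namely SOX10, MITF, PAX3, EDNRB, ERBB3, MC1R, RAB27A and RAB38. The pigment genes TYR, TYRP1 and MLANA and the markers KIT, GPR143, TRPM1 and S100B were detected on none of them. No keratinocyte marker was detected, and 4, 2 and 1 of 6 fibroblast, leukocyte and endothelial markers passed the filter. The summed linear intensity of the measured melanocyte markers was 5310 and 5465 on the TFT arrays and 3888 and 3902 on the LTM arrays. That of leukocyte markers was 376 and 601 on the TFT arrays and 304 and 311 on the LTM arrays, that of fibroblast markers 166 and 235 on the TFT arrays and 204 and 203 on the LTM arrays, and the part of cell makeup in the results was not tested. In RNA from whole cultures, fewer cells of a type and less RNA per cell cannot be told apart.

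The 2 TFT arrays did not resemble each other as the other pairs did. Over genes centred on their mean across the 12 arrays, TFT replicate 1 had a Pearson r of 0.48 with TFT replicate 2 but of 0.74 with each of TFT 8 h replicates 1 and 2, whereas the LTM 24 h pair had one of 0.93; genes share the arrays, so no test is given. The TFT arrays were at least 1 log2 unit apart for 121 genes, and the LTM arrays for 6. Counts and leading genes are therefore given as labelled, from a fit of all 12 arrays, and again with TFT replicate 2 only. Where a gene has a single difference with no fit named, it comes from the second. The second fit used 9 arrays, without TFT 24 h replicate 1 and without 1 array of each drug at 8 h (TFT replicate 3, LTM replicate 1), whose profiles also went against their labels. TFT 8 h replicate 3 had an r of 0.80 and 0.77 with LTM 8 h replicates 2 and 3, and LTM 8 h replicate 1 had one of 0.82 with TFT 24 h replicate 2, the array on which the second fit rests. Whether samples were exchanged is not known from the labels, and no array was moved to another group. In the second fit the TFT 24 h group is 1 array that is assumed to vary like the other groups. These p-values do not allow for the choice of arrays.

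The drugs differed in a large part of the transcriptome. As labelled, 2787 genes were higher and 2976 lower with LTM than with TFT at an adjusted p under 0.05 (limma with Benjamini-Hochberg adjustment), which is 23% and 24.5% of the genes tested and 47.5% in all. With TFT replicate 2 only, 3482 were higher and 3719 lower, or 28.7% and 30.7%, 59.4% in all. A fit that left out TFT 24 h replicate 1 alone, on 11 arrays, called 4421. Differences of at least 2-fold numbered 1598 higher and 1671 lower as labelled and 1771 and 1827 with TFT replicate 2 only. Both fits called 5602 genes, 97.2% of the calls as labelled and 77.8% of the others. They share the LTM arrays and TFT replicate 2, so this overlap is not a replication. The LTM arrays lay wholly above or below the TFT arrays for 75.2% of genes, and the list counts are to be read against these shares.

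Counts against control were unequal between the drugs. Against the same 2 control arrays, LTM 24 h changed 47.4% of the genes as labelled, and in the fit without the 3 arrays 31.2% rose and 32.3% fell. TFT 24 h as labelled changed 0 genes against control (0%, with 563 at an unadjusted p under 0.05), and 0 also passed where the test used a trended, robust prior. With TFT replicate 2 only, 134 genes rose (1.1%) and 24 fell (0.198%); under median scaling in place of quantile normalization 107 rose and 224 fell. That TFT count is fragile, since leaving out control replicate 1 or 2 lowered the total from 158 to 16 or 3 and a fit without TFT replicate 1 alone gave 0. The fits without a control replicate set 1 TFT array against 1 control array. The fit without TFT replicate 1 alone kept 1 array of each drug at 8 h whose profile went against its label. Those arrays entered its spread. The drugs' differences from control share the control arrays, so their values are set side by side and not correlated.

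Levels are normalized log2 intensities, and differences are LTM minus TFT on the log2 scale. The leading rises were histone, immediate early and a few tissue-restricted genes. The histone gene H2AC6 was at 6.08 and 6.28 on the control arrays, 5.04 and 5.52 on TFT replicates 1 and 2, and 10.80 and 10.32 on the LTM arrays, a difference of 5.29 (SE 1.08, adjusted p = 0.00272) as labelled and 5.04 (SE 0.20, adjusted p = 1.35e-06) with TFT replicate 2 only. RUNDC3B was not well above background on the control or TFT arrays and stood at 4.77 and 4.51 in control, 4.51 and 4.47 with TFT and 9.08 and 9.40 with LTM. Of the control and 24 h arrays, RUNDC3B was detected on the LTM arrays only. It was at least 19.94-fold higher with LTM as labelled. The adjusted p of 1.67e-07 (limma) is of the measured values, not of this bound. Such a bound compares the mean of the brighter group with the lowest signal among detected probes of each dimmer array, or with the dim probe itself if brighter. C6orf58, likewise not above background without LTM, was at least 14.17-fold higher as labelled (adjusted p = 0.000201, limma, on the measured values). PSG4, a pregnancy-specific glycoprotein gene detected on TFT replicate 1 but not on TFT replicate 2, was at least 18.458-fold higher than on replicate 2. NPPB, the precursor of B-type natriuretic peptide, was at 5.11 and 4.81 on the control arrays, 5.90 and 5.37 on TFT replicates 1 and 2, and 9.90 and 9.51 on the LTM arrays and detected on 1 of the 2 control arrays. The pseudogene PGM5P2 stood 3.96 higher with TFT replicate 2 only, and 2.61 by its other probe. H2BC18, another histone gene, was 3.64 higher. For each of these genes both LTM arrays lay above both TFT arrays. Leading genes were chosen among those whose arrays do not overlap between the compared groups, so this is no added evidence.

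Several of the leading falls were genes that lay above control on TFT replicate 2. FST, which encodes the activin-binding protein follistatin, was at 11.04 and 10.84 on the control arrays, 11.69 and 12.29 on TFT replicates 1 and 2, and 9.17 and 8.80 on the LTM arrays, a difference of -3.0 (SE 0.51, adjusted p = 0.00104) as labelled and -3.31 (SE 0.18, adjusted p = 1.98e-06) with TFT replicate 2 only. AKR1C2, an aldo-keto reductase that acts on steroids, was at 8.43 and 8.45 on the control arrays, 8.51 and 9.55 on TFT replicates 1 and 2, and 6.43 and 5.69 on the LTM arrays. It was lower with LTM in both fits, with differences of -2.97 and -3.49. ECSCR, a cell surface gene known from endothelium, was at 7.24 and 7.65 on the control arrays, 7.80 and 8.72 on TFT replicates 1 and 2, and 5.42 and 5.23 on the LTM arrays. For these 3 genes LTM lay below the control arrays and TFT replicate 2 above them, with TFT replicate 1 between TFT replicate 2 and the controls. TFT replicate 2 minus control was 1.36 for FST (adjusted p = 0.0139) and 1.28 for ECSCR (adjusted p = 0.0233), and 1.10 for AKR1C2, which did not pass (adjusted p = 0.0711).

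For other leading falls the TFT arrays lay nearer to control than to LTM. CHCHD10, a mitochondrial intermembrane space protein gene, was at 8.99 and 9.0 on the control arrays, 8.81 and 9.26 on TFT replicates 1 and 2, and 6.27 and 6.03 on the LTM arrays. TMEM160 was at 10.33 and 10.43 in control, 9.82 and 10.28 with TFT and 7.23 and 7.21 with LTM, and NES, the intermediate filament nestin, at 10.07 and 10.26 in control, 10.40 and 10.11 with TFT and 7.58 and 7.22 with LTM. Their differences with TFT replicate 2 only were -3.11, -3.06 and -2.71, and all passed in both fits. CMTM8, RBPMS2, the Notch ligand gene DLL3, the Hippo pathway factor TEAD2, NDRG4, GPR162 and the calcium-binding protein gene S100A4 were also among the leading falls, between -2.72 and -3.19, as was CCL2. CMTM8 was detected on 1 of the 2 LTM arrays. The second DLL3 probe was at -0.09 and did not pass (adjusted p = 0.765), whereas the second S100A4 probe gave -2.91.

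**Figure D1:**
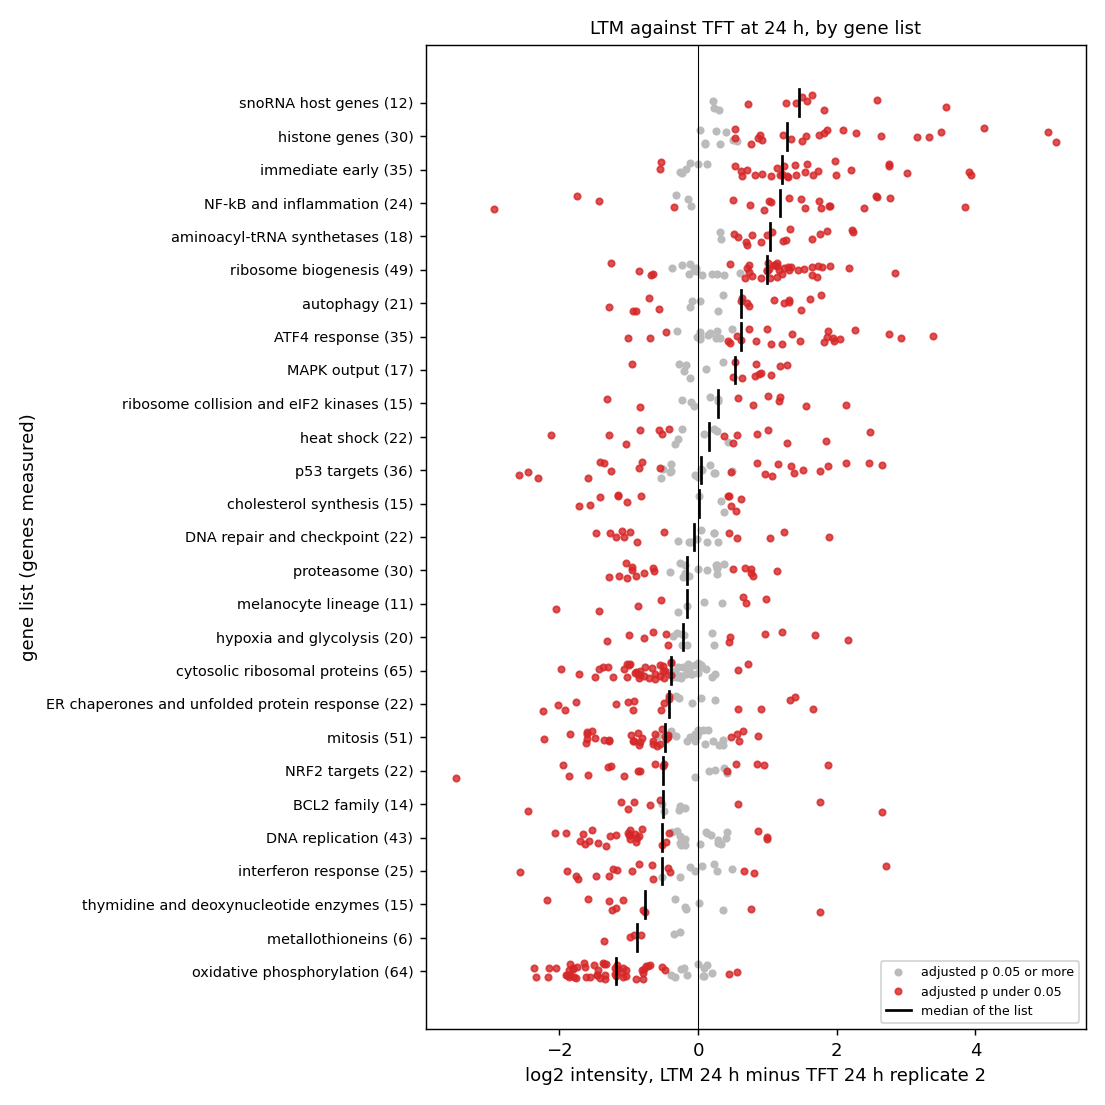
Each point is 1 gene, placed by its log2 intensity with LTM 24 h (mean of 2 arrays) minus TFT 24 h replicate 2 (horizontal axis) in its gene list (vertical axis, with the number of genes measured); red points passed an adjusted p under 0.05 and black bars mark list medians. The snoRNA host and histone genes had medians of 1.46 and 1.29 with dim probes at their measured values, the oxidative phosphorylation genes one of -1.19, and the p53 targets spread to both sides of 0.

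Genes of the integrated stress response were higher with LTM far more often than lower. In this pathway kinases such as GCN2 phosphorylate eIF2, and the transcription factor ATF4 is then translated and induces genes of amino acid supply and tRNA charging. Among its listed targets 18 of 35 were higher and 1 lower as labelled, and 21 and 3 with TFT replicate 2 only, beside 23% and 28.7% of all genes higher. The list medians were 0.75 and 0.62, and those of all genes -0.04 and -0.03; median scaling moved the latter to 0.08. The median of the list, relative to control, was 0.02 and 0.25 on the TFT arrays and 0.94 and 1.0 on the LTM arrays. CHAC1, among the genes counted as higher, was detected on the LTM arrays only, of the control and 24 h arrays. Among the aminoacyl-tRNA synthetases, which load amino acids onto tRNAs, 16 of 18 were higher and 0 lower as labelled, and 16 and 0 with TFT replicate 2 only, with medians of 1.05 and 1.03.

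ATF4 itself was at 12.57 and 12.70 on the control arrays, 12.23 and 12.56 on TFT replicates 1 and 2, and 14.57 and 14.48 on the LTM arrays, higher with LTM by 2.13 (SE 0.55, adjusted p = 0.00891) as labelled and 1.96 (SE 0.14, adjusted p = 5.04e-06) with TFT replicate 2 only. A second ATF4 probe gave 2.09 and another -0.45, which did not pass (adjusted p = 0.145). ASNS, asparagine synthetase, was at 11.90 and 11.90 on the control arrays, 11.72 and 12.16 on TFT replicates 1 and 2, and 14.21 and 14.21 on the LTM arrays, and its difference with TFT replicate 2 only was 2.05 (SE 0.14, adjusted p = 3.59e-06). CTH, which makes cysteine from cystathionine, was at 6.74 and 6.78 on the control arrays, 6.77 and 7.65 on TFT replicates 1 and 2, and 11.12 and 10.96 on the LTM arrays. PPP1R15A, which encodes the eIF2 phosphatase subunit GADD34, was at 10.70 and 10.91 on the control arrays, 10.62 and 11.13 on TFT replicates 1 and 2, and 14.06 and 14.06 on the LTM arrays. All 4 genes had both LTM arrays above every control and TFT array, and for none did TFT replicate 2 pass against control (adjusted p = 0.841, 0.353, 0.0711 and 0.306).

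The synthetases were led by LARS1, for leucine, at 10.32 and 10.19 on the control arrays, 10.54 and 10.44 on TFT replicates 1 and 2, and 12.48 and 12.87 on the LTM arrays. TARS1, for threonine, was at 10.47 and 10.32 on the control arrays, 10.46 and 10.12 on TFT replicates 1 and 2, and 12.03 and 12.65 on the LTM arrays, and IARS1, for isoleucine, at 10.80 and 10.70 in control, 11.05 and 10.98 with TFT and 12.52 and 13.17 with LTM. Both LTM arrays lay above all others for these genes, and the TFT arrays lay above the controls for LARS1 and IARS1 but not for TARS1. The differences with TFT replicate 2 only were 2.23 (SE 0.18, adjusted p = 8e-06), 2.22 (SE 0.22, adjusted p = 2.72e-05) and 1.86 (SE 0.23, adjusted p = 8.28e-05). A second IARS1 probe gave a smaller difference of 0.65 that also passed (adjusted p = 0.00279). GARS1, for glycine, was 1.76 higher.

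The promoters of the ATF4 targets and synthetases were searched on both strands for TGATGNAA, the core letters of the C/EBP-ATF response element. The windows ran from 250 bases before to 50 after each start in the RefSeq promoter table (GRCh38.p14), and a gene counted if any of its listed starts held the motif. It was in 9 of 28 ATF4-list genes (32.1%) and 6 of 15 synthetase genes (40%), against 3.14% of the 9681 tested genes with an entry. The ATF4 list holds known ATF4 targets, so its share describes how the list was made. These matches are a description of the letters, not of binding. 3 promoters are shown 5′ to 3′, from 250 bases before the start to the start or to the end of the motif, with the motif or its reverse complement in capitals. They belong to ASNS (chr7:97872409-97872658, minus strand), TARS1 (chr5:33440715-33440974, plus strand) and IARS1 (chr9:92293698-92293947, minus strand), and none of these motifs overlapped another motif searched here.
ASNS: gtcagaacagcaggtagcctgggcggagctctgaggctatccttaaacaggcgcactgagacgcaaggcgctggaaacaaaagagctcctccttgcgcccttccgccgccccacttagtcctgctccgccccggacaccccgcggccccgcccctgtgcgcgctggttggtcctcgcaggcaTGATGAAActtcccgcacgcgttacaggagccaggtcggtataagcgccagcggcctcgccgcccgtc
TARS1: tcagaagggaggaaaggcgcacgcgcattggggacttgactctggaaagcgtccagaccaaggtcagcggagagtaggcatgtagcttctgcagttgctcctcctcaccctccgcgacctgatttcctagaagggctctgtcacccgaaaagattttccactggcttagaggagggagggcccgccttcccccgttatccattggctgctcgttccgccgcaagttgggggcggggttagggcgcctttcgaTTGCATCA
IARS1: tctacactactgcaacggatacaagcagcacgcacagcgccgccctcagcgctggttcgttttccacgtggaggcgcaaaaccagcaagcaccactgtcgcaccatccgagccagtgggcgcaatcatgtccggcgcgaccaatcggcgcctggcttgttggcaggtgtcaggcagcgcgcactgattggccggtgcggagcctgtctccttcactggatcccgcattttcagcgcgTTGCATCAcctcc

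Factors that act on stalled ribosomes were divided, with 53.3% of the list called as labelled, beside 47.5% of all genes. Of the list of collision factors and eIF2 kinases, 6 of 15 were higher and 2 lower as labelled, and 7 and 2 with TFT replicate 2 only. ASCC3, a helicase that splits collided ribosomes, was at 8.44 and 8.44 on the control arrays, 8.56 and 8.25 on TFT replicates 1 and 2, and 10.16 and 10.60 on the LTM arrays, and NEMF, which tails stalled nascent chains, at 7.95 and 7.87 in control, 8.10 and 7.83 with TFT and 9.23 and 9.54 with LTM. With TFT replicate 2 only, ASCC3 differed by 2.13 (SE 0.18, adjusted p = 1.1e-05) and NEMF by 1.56 (SE 0.16, adjusted p = 3.23e-05), and ASCC2, a partner of ASCC3, was 1.19 higher. The 2 other ASCC3 probes gave 1.55 and 0.19, and the latter did not pass (adjusted p = 0.395). EDF1, which binds collided ribosomes, was lower with LTM, at -1.28 (SE 0.17, adjusted p = 0.000285) and -1.31 (SE 0.15, adjusted p = 5.95e-05).

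**Figure D2:**
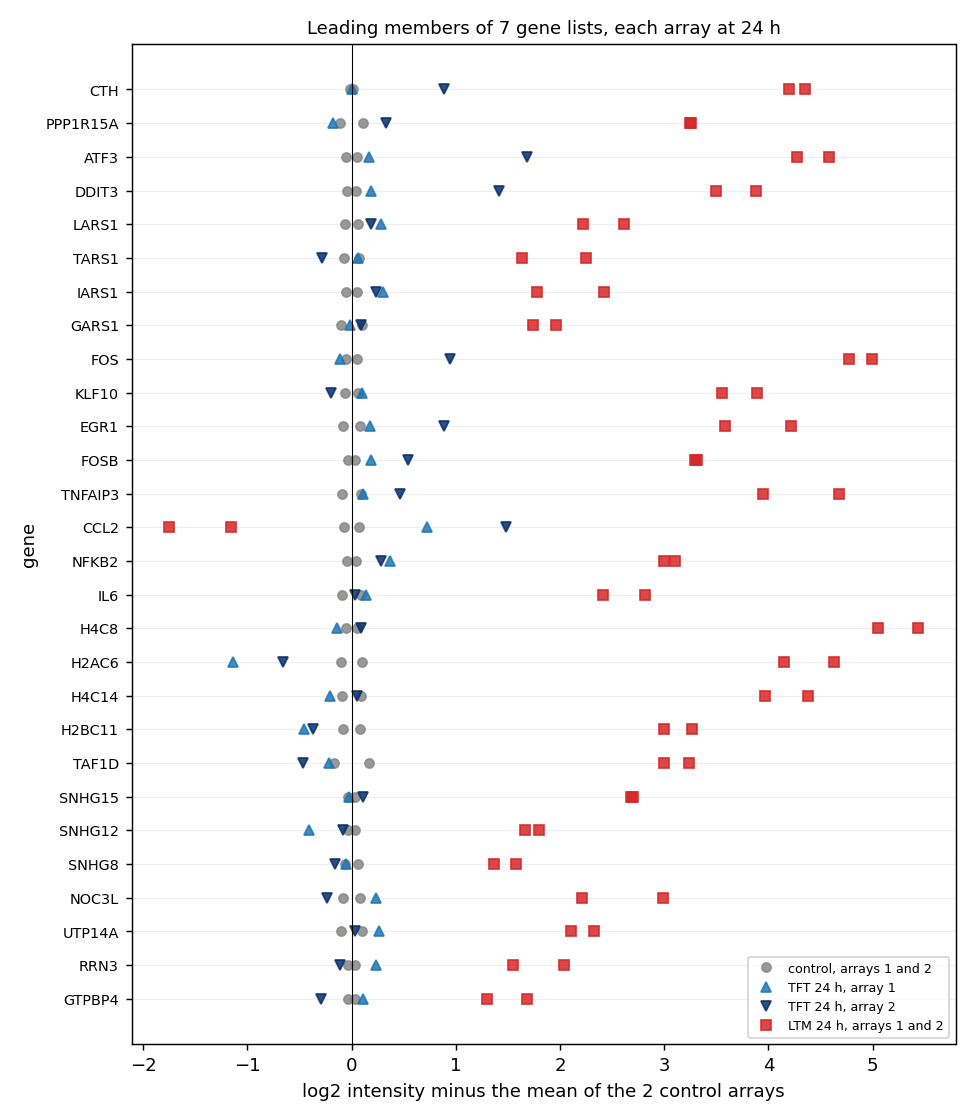
Log2 intensity minus the mean of the 2 control arrays (horizontal axis) for the leading members of 7 gene lists (vertical axis), with 1 marker per array: grey circles for control, light blue upward and dark blue downward triangles for TFT 24 h replicates 1 and 2, and red squares for LTM 24 h. The LTM arrays lie to the right of all others for every gene shown except CCL2, where they lie to the left, and TFT replicate 2 moves part of the way for ATF3 (1.68) and DDIT3 (1.42).

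Immediate early genes, which are induced by MAP kinase signalling without new protein synthesis, were higher with LTM more often than lower. In that list 14 of 35 were higher and 1 lower as labelled, and 27 and 2 with TFT replicate 2 only, with medians of 1.19 and 1.22. The list median relative to control was 0.18 and 0.21 on the TFT arrays and 1.28 and 1.31 on the LTM arrays. With members dim under 1 drug at their bounds, the medians between the drugs were 1.04 as labelled and 1.14 with TFT replicate 2 only. FOS, the AP-1 subunit, was at 6.65 and 6.55 on the control arrays, 6.49 and 7.55 on TFT replicates 1 and 2, and 11.59 and 11.38 on the LTM arrays, a difference of 4.46 (SE 1.28, adjusted p = 0.0151) as labelled and 3.93 (SE 0.17, adjusted p = 1.68e-06) with TFT replicate 2 only. EGR1, a zinc finger factor, was at 9.81 and 9.64 on the control arrays, 9.91 and 10.61 on TFT replicates 1 and 2, and 13.31 and 13.95 on the LTM arrays. KLF10, a TGF-beta inducible repressor, was at 6.09 and 6.21 on the control arrays, 6.25 and 5.96 on TFT replicates 1 and 2, and 9.70 and 10.04 on the LTM arrays, and its second probe gave 1.20 (adjusted p = 0.00165) against 3.91 for the first. FOSB was 2.76 higher. PHLDA1, which restrains growth, was 1.05 higher, though its second probe was at -0.19. Both LTM arrays lay above both TFT arrays for these genes. JUN, the partner of FOS in AP-1, was less separated: it was at 8.97 and 9.03 on the control arrays, 10.01 and 9.51 on TFT replicates 1 and 2, and 10.28 and 9.79 on the LTM arrays, with differences of 0.28 (adjusted p = 0.485) and 0.53 (adjusted p = 0.039), and 1 LTM array lay below TFT replicate 1.

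Among feedback genes of the MAPK pathway, 5 of 17 were higher and 1 lower as labelled, and 10 and 1 with TFT replicate 2 only. DUSP5, a nuclear ERK phosphatase, was at 8.95 and 8.92 on the control arrays, 10.20 and 9.93 on TFT replicates 1 and 2, and 10.99 and 11.22 on the LTM arrays. Both drugs stood above control here, and LTM exceeded TFT by 1.04 (SE 0.63, adjusted p = 0.196), which did not pass as labelled, and by 1.18 (SE 0.15, adjusted p = 0.000107) with TFT replicate 2 only. ERRFI1, an EGF receptor inhibitor, was at 10.67 and 10.55 in control, 10.89 and 11.32 with TFT and 12.51 and 12.71 with LTM, and also passed with TFT replicate 2 only (adjusted p = 5.88e-05, and 0.132 as labelled). CCND1, cyclin D1, was lower with LTM in both fits, at -1.41 and -0.96.

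The EGR1 promoter, searched on both strands of the same window, held 2 copies of the CArG box, the binding letters of serum response factor, which 1.63% of tested genes with an entry held. It is shown up to the start, with the boxes in capitals (chr5:138465229-138465478, plus strand, GRCh38.p14). Of 24 immediate early genes with an entry it was the one with a box.
EGR1: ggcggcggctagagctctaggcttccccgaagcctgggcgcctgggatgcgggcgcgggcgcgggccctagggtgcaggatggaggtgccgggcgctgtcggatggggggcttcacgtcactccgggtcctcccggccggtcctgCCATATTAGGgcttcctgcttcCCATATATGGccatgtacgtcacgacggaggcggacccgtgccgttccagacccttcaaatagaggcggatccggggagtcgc

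NF-kB genes and cytokines were higher with LTM more often than lower. In the list, 11 of 24 were higher and 2 lower as labelled, and 17 and 4 with TFT replicate 2 only, with medians of 1.07 and 1.18. TNFAIP3, whose product A20 edits ubiquitin chains and dampens NF-kB, was at 4.94 and 4.76 on the control arrays, 4.96 and 5.31 on TFT replicates 1 and 2, and 8.80 and 9.53 on the LTM arrays, a difference of 4.02 (SE 1.32, adjusted p = 0.0278) and 3.85 (SE 0.26, adjusted p = 3.7e-06). It was detected on 1 of the 2 control arrays. NFKB2, the p100 subunit, was at 6.82 and 6.73 on the control arrays, 7.14 and 7.06 on TFT replicates 1 and 2, and 9.77 and 9.88 on the LTM arrays. IL6, at 4.39 and 4.58 in control, 4.62 and 4.52 with TFT and 7.30 and 6.89 with LTM, was not above background on the control or TFT arrays and was at least 4.52-fold higher with LTM as labelled (adjusted p = 0.0143). For these genes both TFT arrays lay nearer to control than to LTM. Of the control and 24 h arrays, IL6 and REL were detected on the LTM arrays only, and both are among the genes counted as higher. With members dim under 1 drug at their bounds, the list median was 1.02 in each fit. NFKBIA, which encodes the inhibitor IkB-alpha, was 1.02 higher as labelled, not past the threshold (adjusted p = 0.231), and 1.02 higher with TFT replicate 2 only (adjusted p = 0.0025).

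CCL2 and IL1B went the other way. CCL2, a monocyte chemokine, was at 8.94 and 8.79 on the control arrays, 9.59 and 10.35 on TFT replicates 1 and 2, and 7.71 and 7.12 on the LTM arrays, a difference of -2.55 (SE 0.70, adjusted p = 0.0126) as labelled and -2.94 (SE 0.22, adjusted p = 6.14e-06) with TFT replicate 2 only. It lay above control on both TFT arrays and below control on both LTM arrays. IL1B, interleukin 1 beta, was at 7.13 and 6.84 on the control arrays, 7.44 and 8.49 on TFT replicates 1 and 2, and 7.02 and 6.47 on the LTM arrays, a difference of -1.22 (SE 0.52, adjusted p = 0.0756) as labelled, not past the threshold, and of -1.74 (SE 0.24, adjusted p = 0.000166) with TFT replicate 2 only. PTGS2, the prostaglandin synthase COX-2, did not pass between the drugs. It was at 5.63 and 5.71 on the control arrays, 6.10 and 7.47 on TFT replicates 1 and 2, and 7.07 and 7.58 on the LTM arrays. It stood above control by 1.80 on TFT replicate 2 (adjusted p = 0.00992) and by 1.65 with LTM (adjusted p = 3.45e-05). LTM minus TFT was -0.14 with TFT replicate 2 only (adjusted p = 0.621, 95% interval -0.66 to 0.37) and 0.54 as labelled (adjusted p = 0.444).

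The NF-kB letters GGGNNTTCC, also with 1 more T before the last letters, were searched on both strands in the same windows, with overlapping matches counted once. None of the matches shown overlaps another motif searched here. They were in 11 of 20 listed genes with an entry (55%), against 12.1% of the tested genes. Membership of the list rests on known NF-kB targets, so this share describes the list. 2 promoters of genes that were higher with LTM are shown up to the start with the matches in capitals: TNFAIP3 (chr6:137867009-137867258, plus strand), which held 2, and IL6 (chr7:22726950-22727199, plus strand), which held 1, both GRCh38.p14 from RefSeq.
TNFAIP3: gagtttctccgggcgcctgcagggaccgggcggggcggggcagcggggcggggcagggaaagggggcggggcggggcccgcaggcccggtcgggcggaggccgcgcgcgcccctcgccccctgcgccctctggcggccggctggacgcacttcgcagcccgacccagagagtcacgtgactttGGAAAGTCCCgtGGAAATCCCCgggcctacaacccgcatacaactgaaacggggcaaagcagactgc
IL6: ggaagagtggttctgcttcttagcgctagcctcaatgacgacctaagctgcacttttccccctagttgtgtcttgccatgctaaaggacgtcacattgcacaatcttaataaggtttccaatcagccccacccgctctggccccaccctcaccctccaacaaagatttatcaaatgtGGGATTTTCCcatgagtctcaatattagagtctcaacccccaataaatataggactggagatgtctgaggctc

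The p53 targets, which include arrest, repair and death genes, lay on both sides of 0 between the drugs. In the list, 11 of 36 were higher and 4 lower as labelled, and 13 and 10 with TFT replicate 2 only, with medians of 0.26 and 0.04. As labelled 41.7% of the list was called between the drugs, beside 47.5% of all genes, so this count is near that share. Relative to control the list median was 0.16 and 0.58 on the TFT arrays and 0.89 and 0.94 on the LTM arrays. Against control, 7 of 36 rose and 0 fell with TFT replicate 2 (1.1% and 0.198% of all genes), and 22 rose and 7 fell with LTM (31.2% and 32.3%).

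One group of targets was higher with LTM. PMAIP1, which encodes the death protein NOXA, was at 7.32 and 7.16 on the control arrays, 7.58 and 7.48 on TFT replicates 1 and 2, and 9.99 and 10.28 on the LTM arrays, a difference of 2.61 (SE 0.50, adjusted p = 0.0019) and 2.66 (SE 0.16, adjusted p = 2.8e-06). GADD45A, a growth arrest gene, was at 10.26 and 10.30 on the control arrays, 9.94 and 10.85 on TFT replicates 1 and 2, and 13.42 and 13.22 on the LTM arrays. MDM2, the ubiquitin ligase of p53, was at 4.86 and 5.45 on the control arrays, 5.36 and 6.07 on TFT replicates 1 and 2, and 7.43 and 7.48 on the LTM arrays and detected on 1 of the 2 control arrays. Both LTM arrays lay above all others. TFT replicate 2 minus control was 0.91 for MDM2 and 0.57 for GADD45A, and neither passed (adjusted p = 0.113 and 0.102). RRM2B, the p53-inducible ribonucleotide reductase subunit, was 1.76 (SE 0.26, adjusted p = 0.000292) higher with LTM than on TFT replicate 2.

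A second group was higher on TFT replicate 2 than with LTM. GDF15, a secreted stress cytokine, was at 5.18 and 5.44 on the control arrays, 5.56 and 8.35 on TFT replicates 1 and 2, and 6.16 and 5.92 on the LTM arrays. TFT replicate 2 stood alone, and the difference was -0.92 (SE 0.98, adjusted p = 0.472) as labelled and -2.31 (SE 0.18, adjusted p = 7.8e-06) with that array only. CDKN1A, the cell cycle inhibitor p21, was at 4.72 and 4.61 on the control arrays, 4.82 and 5.80 on TFT replicates 1 and 2, and 5.10 and 4.87 on the LTM arrays. Neither control array detected it, and the single TFT array that detected it was at least 1.84-fold above them (adjusted p = 0.0168). LTM minus TFT replicate 2 was -0.81 (SE 0.16, adjusted p = 0.0015), and as labelled the difference of -0.32 did not pass (adjusted p = 0.57). Of the 2 LTM arrays, 1 detected it. BAX, a pore-forming death protein, was at 9.68 and 9.81 on the control arrays, 10.05 and 10.37 on TFT replicates 1 and 2, and 8.35 and 7.49 on the LTM arrays, and LTM lay below control on both arrays. CMBL, a hydrolase, was likewise lower at 9.31 and 9.44 in control, 9.47 and 9.93 with TFT and 7.36 and 7.36 with LTM. Both differences passed in both fits, at -2.29 and -2.34 as labelled. The second BAX probe gave -0.87 (adjusted p = 0.0005).

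Other targets had higher values than control on TFT replicate 2 and on both LTM arrays, and did not pass between the drugs; they were named after their values were seen. DDB2, a nucleotide excision repair factor, was at 6.35 and 6.60 on the control arrays, 6.19 and 7.68 on TFT replicates 1 and 2, and 7.51 and 7.76 on the LTM arrays, and LTM minus TFT replicate 2 was -0.04 (95% interval -0.46 to 0.37). FAS, a death receptor, was at 4.95 and 5.08 on the control arrays, 5.31 and 6.0 on TFT replicates 1 and 2, and 5.94 and 6.51 on the LTM arrays, with 0.23 (-0.26 to 0.72). For DRAM1, a lysosomal autophagy regulator, the value was -0.01 (-0.41 to 0.40), for TIGAR, a fructose bisphosphatase, 0.04 (-0.38 to 0.45), and for EDA2R, a TNF family receptor not detected in control, 0.24 (-0.24 to 0.73). A difference as large as these bounds is not excluded. All 5 passed for LTM against control, but of them only DDB2 passed for TFT replicate 2 (adjusted p = 0.0233, and 0.0648 for FAS). On TFT replicate 1, DDB2 lay below both control arrays.

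**Figure D3:**
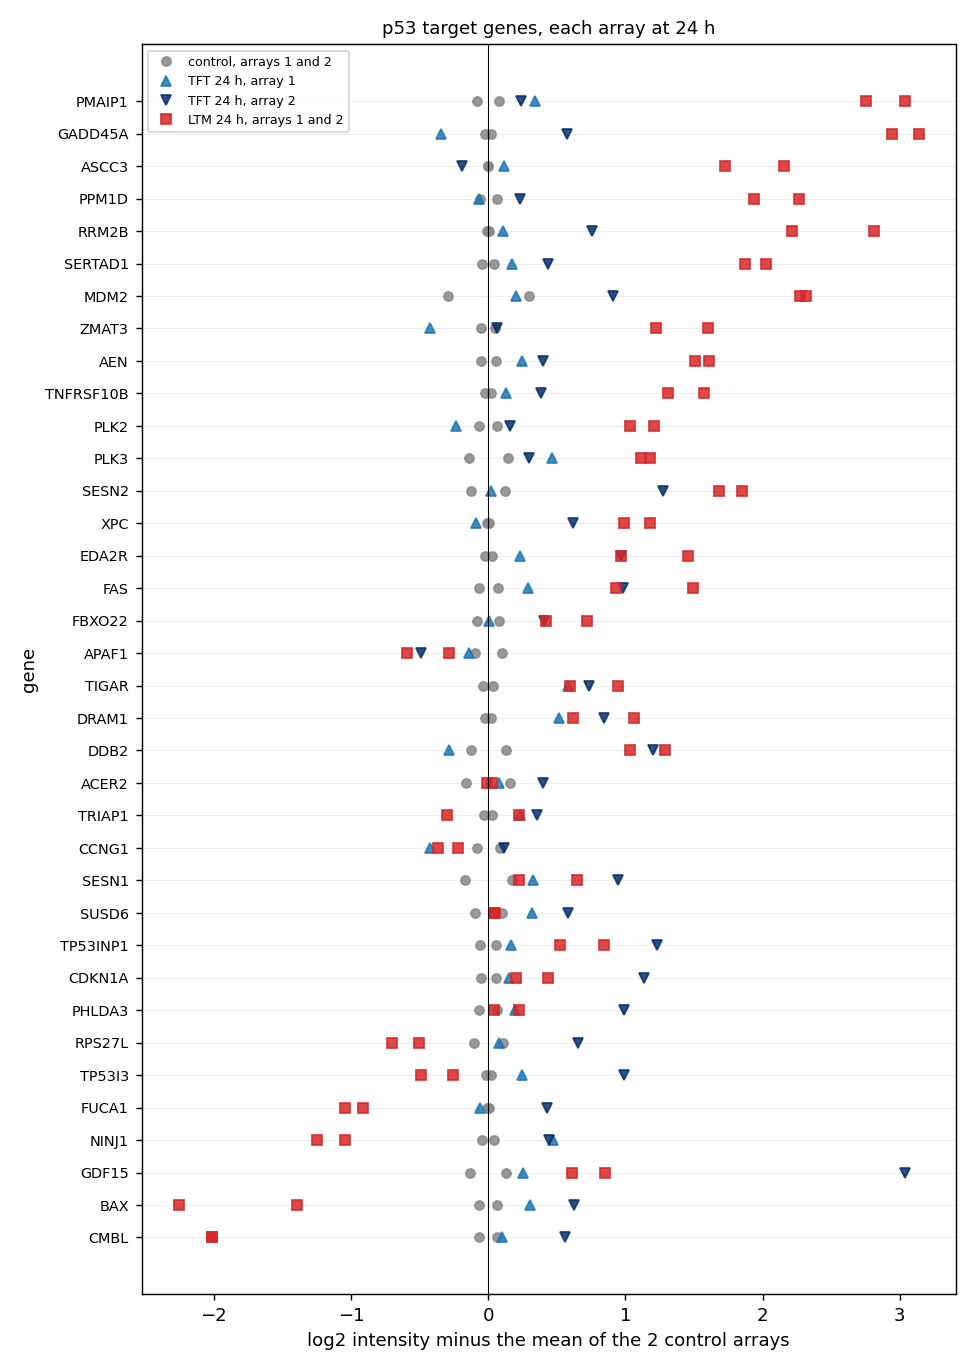
Log2 intensity minus the mean of the 2 control arrays (horizontal axis) for all 36 p53 targets measured (vertical axis, ordered by LTM minus TFT replicate 2), with 1 marker per array: grey circles for control, light blue upward and dark blue downward triangles for TFT 24 h replicates 1 and 2, and red squares for LTM 24 h. PMAIP1 and GADD45A at the top are high with LTM, DDB2 and FAS in the middle are high on TFT replicate 2 and both LTM arrays, and GDF15 stands 3.04 above control on TFT replicate 2, to the right of every other array.

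Stress genes that rose on TFT replicate 2 were set beside both drugs. Over 15 stress lists with 319 genes measured, 21 genes passed against control on this array, all higher. TFT replicate 1 was above both control arrays for 17 of them, but above TFT replicate 2 for only 2, DUSP5 and ANGPTL4. Since the genes were chosen for their level on TFT replicate 2, their differences from LTM are a description. LTM was higher than TFT replicate 2 for 8, lower for 8 and not past the threshold for 5. As labelled, ATF3, DDIT3, IL24, FOS, PCK2 and CCL2 passed between the drugs and the others did not. By list, 7 p53 targets, 5 NF-kB, 4 ATF4, 4 immediate early, 2 hypoxia, 1 MAPK and 1 autophagy gene rose, some genes being in more than 1 list, beside 1.1% of all genes. The heat shock, endoplasmic reticulum, NRF2, metallothionein, interferon, collision, synthetase and BCL2 lists are absent from this count. At that share of all genes, lists of their size can hold none, so this is not a result about them.

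Among those that LTM raised further were ATF3, DDIT3 and IL24. ATF3, a stress-induced repressor, was at 7.68 and 7.57 on the control arrays, 7.79 and 9.31 on TFT replicates 1 and 2, and 11.90 and 12.21 on the LTM arrays. DDIT3, which encodes the death-associated factor CHOP, was at 7.89 and 7.97 on the control arrays, 8.12 and 9.35 on TFT replicates 1 and 2, and 11.81 and 11.43 on the LTM arrays. IL24, a cytokine of the IL-10 family, was at 7.03 and 6.76 on the control arrays, 7.16 and 8.57 on TFT replicates 1 and 2, and 11.07 and 10.87 on the LTM arrays. The order was control, then TFT replicate 2, then LTM for all 3, with TFT replicate 1 nearer to control than to TFT replicate 2. TFT replicate 2 minus control was 1.68, 1.42 and 1.68 (adjusted p = 0.00553, 0.00871 and 0.00665), and LTM minus control 4.43, 3.69 and 4.07. LTM minus TFT replicate 2 was 2.75 (SE 0.16, adjusted p = 2.54e-06), 2.27 (SE 0.17, adjusted p = 6.53e-06) and 2.40 (SE 0.18, adjusted p = 5.84e-06). FOS, DUSP5 and the circadian repressor BHLHE40 were also in this set, with LTM above TFT replicate 2 by 3.93, 1.18 and 0.44. So were the cytokine gene LIF and PCK2, which encodes the mitochondrial phosphoenolpyruvate carboxykinase. LIF and PCK2, with DDB2, IER5, PHLDA3 and TP53I3, were named after their values were seen.

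Those lower with LTM were GDF15, CCL2, IL1B, CDKN1A, TP53INP1, WIPI1, PHLDA3 and TP53I3. TP53INP1, a p53-induced regulator of death and autophagy, was at 6.08 and 5.96 on the control arrays, 6.18 and 7.25 on TFT replicates 1 and 2, and 6.54 and 6.86 on the LTM arrays, and its second probe did not pass (-0.24, adjusted p = 0.37). WIPI1, an autophagosome protein, was at 5.96 and 5.95 on the control arrays, 6.26 and 6.69 on TFT replicates 1 and 2, and 6.13 and 6.11 on the LTM arrays. LTM lay between the controls and TFT replicate 2 for both genes. Not past the threshold were PTGS2, DDB2, SESN2, IER5 and ANGPTL4. SESN2, a leucine sensor that both p53 and ATF4 induce, was at 5.35 and 5.61 on the control arrays, 5.50 and 6.75 on TFT replicates 1 and 2, and 7.16 and 7.33 on the LTM arrays, and LTM minus TFT replicate 2 was 0.49 (95% interval -0.06 to 1.04), beside 1.12 as labelled (adjusted p = 0.0569). ANGPTL4, a lipase inhibitor, was at 5.63 and 5.25 on the control arrays, 6.99 and 6.46 on TFT replicates 1 and 2, and 6.09 and 6.12 on the LTM arrays, the highest array being TFT replicate 1. TRIB3, a pseudokinase that ATF4 and CHOP induce, differed by 0.27 between LTM and TFT replicate 2 (adjusted p = 0.162, 95% interval -0.08 to 0.61).

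The rises with TFT rest on 1 array and on both controls. Of the 21 genes, 3 still passed without control replicate 1 (GDF15, ATF3 and IL24), 1 without control replicate 2 (GDF15), and 0 when only TFT replicate 1 was left out. All kept their sign in those fits. The last of the fits kept 1 array of each drug at 8 h whose profile went against its label.

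**Figure D4:**
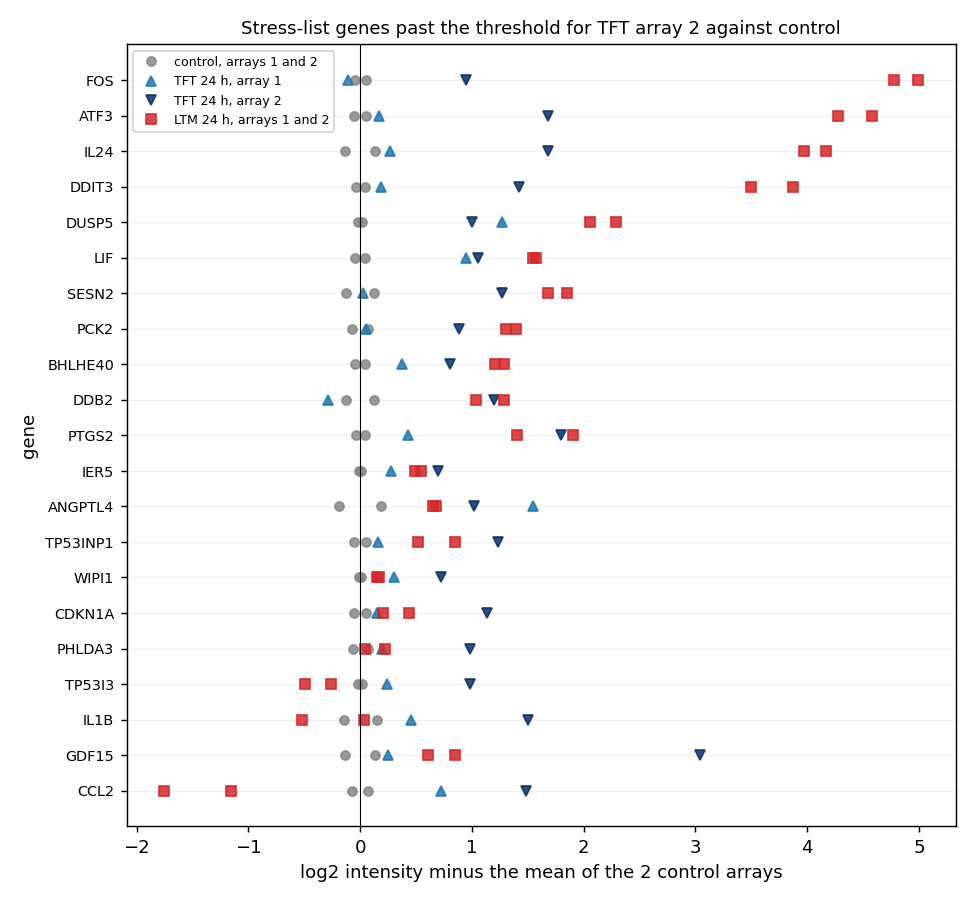
The 21 stress-list genes that passed for TFT replicate 2 against control (vertical axis, ordered by LTM minus TFT replicate 2), placed by log2 intensity minus the control mean (horizontal axis), with the same markers as the other plots by array (grey circles for control, light and dark blue triangles for TFT replicates 1 and 2, red squares for LTM). The upper genes, FOS and ATF3 among them, continue to higher levels with LTM, and for the lowest genes TFT replicate 2 lies furthest right, with GDF15 at 3.04.

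Histone genes, hosts of small nucleolar RNAs and ribosome assembly genes were higher with LTM more often than lower. Relative to control, the median of the host genes was -0.02 and -0.09 on TFT replicates 1 and 2. That of the ribosome assembly genes was 0.15 and -0.06. Of the histone genes, 21 of 30 were higher and 0 lower as labelled, and 22 and 0 with TFT replicate 2 only. For 7 of them, H2AC8, H3C10, H3C4, H3C8, H4C2, H4C5 and H4C8, no control or TFT array was well above background and both LTM arrays were, so that their differences are lower bounds, from at least 1.26-fold for H3C8 to at least 32.3-fold for H4C8 as labelled. All 7 are among the genes called higher, beside 14 and 15 other histone genes in the 2 fits. The list median was 1.34 and 1.29 with dim probes at their measured values, and 1.14 and 1.10 with every member that was dim on the TFT arrays at its bound. Many histone genes differ little in sequence, and a probe may also read copies of its gene. The adjusted p of H4C8 was 0.000594 as labelled. H4C14 was at 6.37 and 6.55 on the control arrays, 6.25 and 6.51 on TFT replicates 1 and 2, and 10.84 and 10.43 on the LTM arrays, and H2BC11, not detected on TFT replicate 1, at 5.43 and 5.26 in control, 4.89 and 4.98 with TFT and 8.62 and 8.34 with LTM. Against control, and with dim probes at their measured values, the list median was lower on both TFT arrays (-0.18 and -0.17) and higher on both LTM arrays (1.02 and 0.94). As background, most histone mRNAs of cycling cells end in a stem-loop without a poly(A) tail, and the RNA here was amplified by the Eberwine method, so which form of histone RNA was read is not known.

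Among host genes of small nucleolar RNAs, 8 of 12 were higher and 0 lower as labelled, and 9 and 0 with TFT replicate 2 only. TAF1D was at 6.74 and 6.40 on the control arrays, 6.35 and 6.10 on TFT replicates 1 and 2, and 9.57 and 9.80 on the LTM arrays, and SNHG15 at 10.44 and 10.37 in control, 10.38 and 10.52 with TFT and 13.11 and 13.09 with LTM. Both were higher in both fits, by 3.46 and 2.65 as labelled, and their other probes gave 2.32 and 2.36 with TFT replicate 2 only. SNHG12 and SNHG8 were 1.81 and 1.64 higher. As background, the spliced host transcripts are known substrates of nonsense-mediated decay.

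Of ribosome biogenesis genes, 29 of 49 were higher and 4 lower as labelled, and 33 and 4 with TFT replicate 2 only, with medians of 0.90 and 1.0. NOC3L, a nucleolar assembly factor, was at 9.67 and 9.50 on the control arrays, 9.82 and 9.35 on TFT replicates 1 and 2, and 11.80 and 12.58 on the LTM arrays. UTP14A, of the small subunit processome, and RRN3, which recruits RNA polymerase I, were 2.18 and 1.91 higher, and the GTPase GTPBP4 1.78. Genes of the ribosomal proteins went the other way: 2 of 65 were higher and 30 lower as labelled, and 2 and 33 with TFT replicate 2 only. RPL29 was at 11.70 and 11.90 on the control arrays, 11.60 and 12.03 on TFT replicates 1 and 2, and 10.26 and 9.84 on the LTM arrays, and RPS28, RPL14 and RPL21 were -1.72, -1.49 and -1.42 against TFT replicate 2.

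Genes of oxidative phosphorylation, the respiratory chain and ATP synthase, were lower with LTM. Here 2 of 64 were higher and 49 lower as labelled, and 2 and 51 with TFT replicate 2 only, with medians of -1.16 and -1.19. The list median relative to control was 0.06 and 0.18 on the TFT arrays and -0.93 and -1.02 on the LTM arrays. NDUFB7, a complex I subunit, was at 12.09 and 12.13 on the control arrays, 12.17 and 12.27 on TFT replicates 1 and 2, and 9.95 and 9.91 on the LTM arrays, a difference of -2.29 (SE 0.20, adjusted p = 6.14e-05) and -2.34 (SE 0.13, adjusted p = 2.19e-06). NDUFB6, of the same complex, was at 11.44 and 11.44 in control, 11.53 and 11.53 with TFT and 9.48 and 9.25 with LTM, and UQCR10, of complex III, at 8.94 and 8.99 in control, 9.13 and 9.22 with TFT and 7.20 and 6.95 with LTM. Both TFT arrays lay above the control arrays for these 3 genes, and both LTM arrays below them. UQCRB differed by -2.36, but its 2 other probes gave -0.46 and 0.30 and did not pass.

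Genes of DNA synthesis, the process that TFT enters, were lower with LTM than with TFT. Among replication genes 3 of 43 were higher and 25 lower as labelled, and 3 and 24 with TFT replicate 2 only, and among enzymes of thymidine and deoxynucleotides 2 of 15 were higher and 8 lower as labelled, and 2 and 8 with TFT replicate 2 only. RNASEH2A, a ribonuclease H2 subunit, was at 10.24 and 10.34 on the control arrays, 10.18 and 10.44 on TFT replicates 1 and 2, and 8.74 and 8.34 on the LTM arrays. TYMS, the thymidylate synthase that TFT inhibits, was at 12.30 and 12.19 on the control arrays, 12.18 and 11.93 on TFT replicates 1 and 2, and 10.87 and 10.42 on the LTM arrays, and TK1, the kinase that activates TFT, at 11.09 and 11.06 in control, 11.11 and 10.90 with TFT and 9.88 and 9.46 with LTM. For TYMS the difference was -1.41 (SE 0.20, adjusted p = 0.000418) and -1.29 (SE 0.19, adjusted p = 0.000244), and for TK1 -1.34 (SE 0.21, adjusted p = 0.000741) and -1.24 (SE 0.18, adjusted p = 0.000237). LTM lay below every other array for both, and TFT replicate 2 minus control was -0.31 and -0.17 (adjusted p = 0.428 and 0.68). TYMP, thymidine phosphorylase, which breaks TFT down, was at 7.92 and 8.03 on the control arrays, 7.92 and 8.21 on TFT replicates 1 and 2, and 6.06 and 6.01 on the LTM arrays. RPA3, of the single-strand binding complex, cyclin E1 (CCNE1) and the fork protein TIMELESS were at -2.06, -1.70 and -1.66. SHMT1, which supplies one-carbon units for thymidylate, was -1.59, but -0.71 and 0.09 by its other probes.

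Repair genes were divided: 4 of 22 were higher and 7 lower as labelled, and 5 and 8 with TFT replicate 2 only. RAD54B, a recombination helicase, was higher at 7.98 and 7.83 in control, 7.97 and 8.01 with TFT and 9.62 and 10.18 with LTM, and BRCA1 lower at 8.98 and 9.06 in control, 8.80 and 8.95 with TFT and 7.43 and 7.52 with LTM. TOPBP1, a checkpoint activator, was 1.24 and XRCC3 -1.26. As labelled 50% of this list was called, beside 47.5% of all genes, so its count is near that share. The median of this list was -0.06 with TFT replicate 2 only and became positive under median scaling. Of mitosis genes, 3 of 51 were higher and 14 lower as labelled, and 5 and 28 with TFT replicate 2 only. The medians relative to control were -0.48 and -0.19 on the TFT arrays and -0.73 and -0.49 on the LTM arrays, and TFT replicate 1 was nearly level with 1 of the LTM arrays. SPC25, of the kinetochore, was at 7.93 and 7.78 on the control arrays, 7.54 and 7.62 on TFT replicates 1 and 2, and 5.62 and 5.18 on the LTM arrays. CDCA3, PBK and the phosphatase CDC25C were -1.85, -1.62 and -1.60 against TFT replicate 2. Other CDC25C probes gave -0.87 and -0.71 against that array. As labelled they were at -0.37 and -0.16 and did not pass (adjusted p = 0.466 and 0.79, limma). CCNB1, cyclin B1, was at 9.10 and 9.03 in control, 8.55 and 8.96 with TFT and 7.93 and 8.10 with LTM, and passed with TFT replicate 2 only (-0.94, adjusted p = 0.000295) but not as labelled (-0.74, adjusted p = 0.119).

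**Figure D5:**
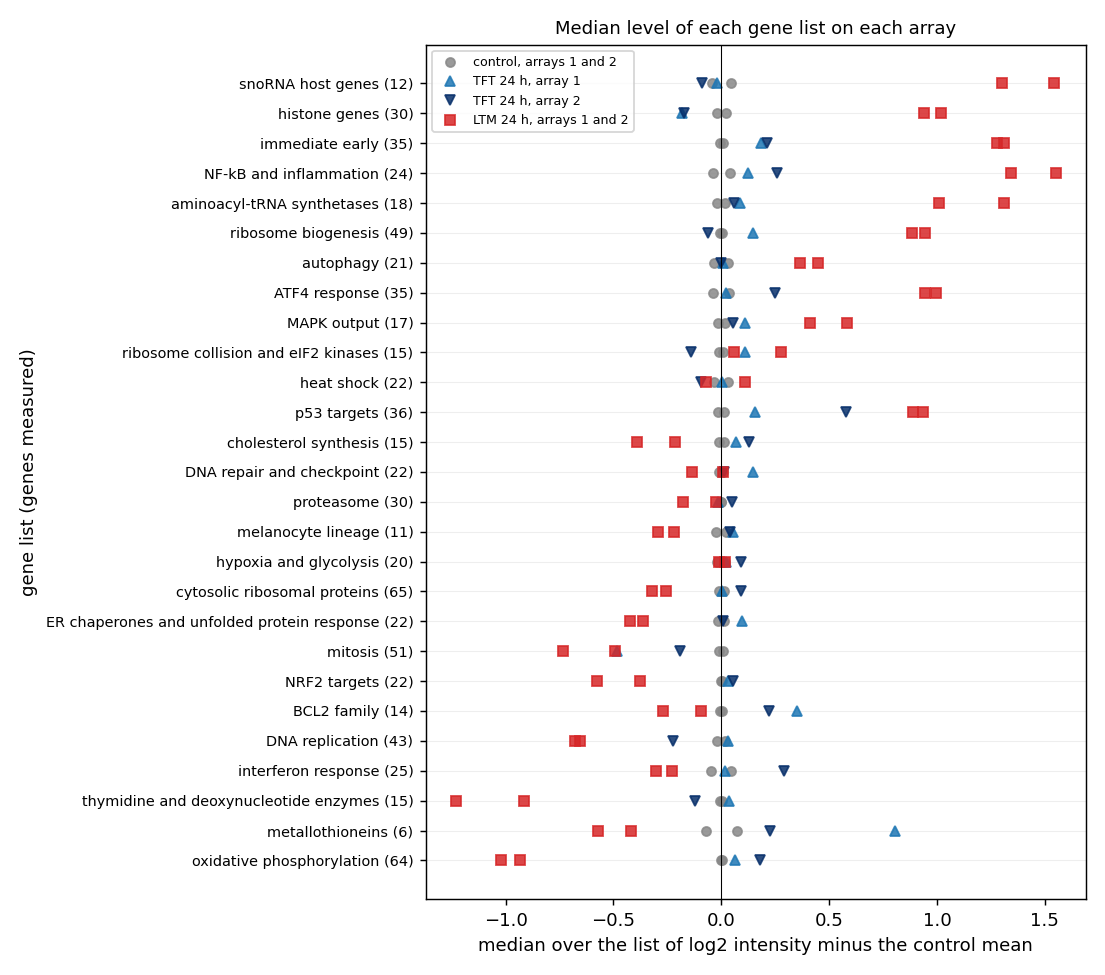
Median over each gene list (vertical axis, with the number of genes measured) of log2 intensity minus the control mean (horizontal axis), with the same markers as the other plots by array (grey circles for control, light and dark blue triangles for TFT replicates 1 and 2, red squares for LTM). For the p53 targets TFT replicate 2 lies at 0.58 and the LTM arrays at 0.89 and 0.94. For snoRNA host and synthetase genes both TFT arrays stay near 0, and for histone genes they lie at -0.18 and -0.17.

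Protein folding genes did not share 1 direction. In the endoplasmic reticulum list 5 of 22 were higher and 9 lower as labelled, and 5 and 12 with TFT replicate 2 only. HSPA5, the chaperone BiP, was at 9.85 and 9.79 on the control arrays, 10.50 and 9.63 on TFT replicates 1 and 2, and 8.70 and 8.72 on the LTM arrays, a difference of -1.35 (SE 0.47, adjusted p = 0.0366) and -0.92 (SE 0.13, adjusted p = 0.000252). TFT replicate 1 was the highest array. SDF2L1 and CALR, also of the ER, were -2.01 and -1.76, and SEC61B, of the translocon, -2.23. PDIA4, a disulfide isomerase detected on 1 of the 2 LTM arrays, was -1.92. In the heat shock list, which is not limited to the cytosol, 5 of 22 were higher and 5 lower as labelled. That is 45.5% of the list called, beside 47.5% of all genes. The list median was 0.07 as labelled and 0.15 with TFT replicate 2 only, and its sign turned under median scaling. CHORDC1, an HSP90 co-chaperone, was higher at 7.99 and 8.14 in control, 8.46 and 7.95 with TFT and 10.30 and 10.55 with LTM, as was the HSP110 family member HSPA4, by 1.84. A second HSPA4 probe gave 0.51. HSPE1, the mitochondrial chaperonin HSP10, was lower at 11.72 and 11.60 in control, 11.86 and 11.77 with TFT and 9.91 and 9.40 with LTM. DNAJB4, an HSP40 member not above background on the control or TFT arrays, was at least 2.44-fold higher with LTM (adjusted p = 0.00154). HSPA1A, whose probe can also read HSPA1B, was -0.92 (adjusted p = 0.369) and -0.56 (adjusted p = 0.0498).

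Oxidative and metal stress genes were lower with LTM more often than higher. Of NRF2 targets, 4 of 22 were higher and 10 lower as labelled, and 5 and 12 with TFT replicate 2 only. The exception among the leading members was SLC7A11, the cystine transporter, which ATF4 also induces, at 7.43 and 7.61 on the control arrays, 6.73 and 7.25 on TFT replicates 1 and 2, and 9.19 and 9.05 on the LTM arrays. HMOX1, heme oxygenase 1, was also higher, at 5.86 and 5.84 in control, 6.02 and 5.92 with TFT and 6.76 and 6.99 with LTM, whereas the carbonyl reductase CBR1 and PIR were -1.95 and -1.86. Of 6 metallothioneins, which bind zinc and copper, 4 were lower in each fit and 0 higher. MT1X was at 10.30 and 10.28 on the control arrays, 11.32 and 10.79 on TFT replicates 1 and 2, and 9.78 and 9.86 on the LTM arrays, and MT1E at 9.10 and 9.21 in control, 9.99 and 9.07 with TFT and 8.04 and 8.25 with LTM. MT1G and MT2A were -1.35 and -0.82 against TFT replicate 2. TFT replicate 1 was the highest array for MT1X and MT1E, and the list median on it was 0.80 above control.

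Among interferon-stimulated genes 3 of 25 were higher and 6 lower as labelled, and 3 and 14 with TFT replicate 2 only, beside 24.5% and 30.7% of all genes lower. As labelled the share was thus near that of all genes. The list had a median on TFT replicate 2 of 0.29 above control. ISG15, a ubiquitin-like modifier, was at 7.75 and 7.91 on the control arrays, 7.98 and 8.41 on TFT replicates 1 and 2, and 5.94 and 5.74 on the LTM arrays, a difference of -2.35 (SE 0.39, adjusted p = 0.00086) and -2.57 (SE 0.18, adjusted p = 4.8e-06). IFIT1 and IFI6 were -1.89 and -1.76 against TFT replicate 2, and IFIT1 did not pass as labelled (adjusted p = 0.155). IFIH1, the RNA sensor MDA5, went the other way at 5.90 and 5.27 on the control arrays, 5.46 and 5.22 on TFT replicates 1 and 2, and 7.76 and 8.10 on the LTM arrays, with differences of 2.59 (SE 0.21, adjusted p = 6.13e-05) and 2.71 (SE 0.24, adjusted p = 1.31e-05). Its LTM arrays lay above all others.

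Of hypoxia and glycolysis genes 3 of 20 were higher and 5 lower as labelled, and 6 and 6 with TFT replicate 2 only. KDM3A, a histone demethylase, was 2.17 and VEGFA, the angiogenic factor, 1.21. ADM, adrenomedullin, was 1.68 with TFT replicate 2 only, not past the threshold as labelled (adjusted p = 0.14), and MXI1, a MYC antagonist, was -1.31, with -0.15 by its second probe. Of cholesterol synthesis genes 0 of 15 were higher and 7 lower as labelled, and 5 and 7 with TFT replicate 2 only, with DHCR7 at -1.71, LSS at -1.41 and FDPS at -1.15. Of proteasome genes 6 of 30 were higher and 10 lower as labelled, and 6 and 10 with TFT replicate 2 only, with PSMD12 at 1.14 and the core subunits PSMB5, PSMB3 and PSMB2 at -1.29, -1.15 and -1.04. These counts stand beside 47.5% and 59.4% of all genes called.

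Of BCL2 family genes 2 of 14 were higher and 6 lower as labelled, and 3 and 6 with TFT replicate 2 only. Besides PMAIP1 and BAX, BIK, a BH3-only protein, was not above background without LTM and at least 2.58-fold higher with it as labelled (adjusted p = 0.00786), and BAD was -1.10. Among autophagy genes 9 of 21 were higher and 3 lower as labelled, and 11 and 5 with TFT replicate 2 only. SQSTM1, the receptor p62, was at 13.07 and 13.14 on the control arrays, 13.08 and 13.10 on TFT replicates 1 and 2, and 14.39 and 14.45 on the LTM arrays. MAP1LC3B, the LC3B protein of autophagosomes, was at 9.37 and 9.24 in control, 9.51 and 9.28 with TFT and 10.73 and 10.80 with LTM, and the receptor NBR1, not detected on TFT replicate 1, and UVRAG were 1.77 and 1.61 higher, with 0.45 by the other UVRAG probe.

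Melanocyte lineage genes moved individually: 3 of 11 were higher and 4 lower as labelled, and 3 and 4 with TFT replicate 2 only. MITF, the lineage's master factor, was at 5.37 and 5.80 on the control arrays, 5.76 and 6.08 on TFT replicates 1 and 2, and 6.91 and 7.23 on the LTM arrays, higher with LTM by 1.14 (SE 0.29, adjusted p = 0.00883) and 0.99 (SE 0.31, adjusted p = 0.0187). SOX10, which acts on the MITF promoter, was at 11.42 and 11.39 on the control arrays, 11.33 and 11.24 on TFT replicates 1 and 2, and 10.36 and 10.40 on the LTM arrays, and the receptors ERBB3 and EDNRB were -2.04 and -1.43. The list median was -0.10 as labelled, and its sign turned under median scaling. OCA2, among the genes counted as higher, was detected on the LTM arrays only, of the control and 24 h arrays. Among fibroblast markers, FAP was -0.79 with TFT replicate 2 only and did not pass as labelled (adjusted p = 0.317). PDGFRA was not above background with LTM, was detected on 1 of the 2 control arrays and was at least 1.75-fold lower (adjusted p = 0.00143). The other measured markers were LUM and DCN. LUM, lumican, was at 5.71 and 5.66 on the control arrays, 5.72 and 6.33 on TFT replicates 1 and 2, and 6.80 and 6.70 on the LTM arrays. Its difference did not pass in either fit (0.73 (SE 0.32, adjusted p = 0.0882) as labelled and 0.42 (SE 0.17, adjusted p = 0.0525) with TFT replicate 2 only). DCN, decorin, was detected on 1 of these 6 arrays and did not pass (adjusted p = 0.9). GAPDH was at 14.48 and 14.47 on the control arrays, 14.42 and 14.45 on TFT replicates 1 and 2, and 14.53 and 14.48 on the LTM arrays, a difference of 0.06 (adjusted p = 0.758). For ACTB the difference was -0.01 (adjusted p = 0.972), and a second probe gave 0.89 (adjusted p = 0.000663).

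The difference between the drugs at 24 h was set beside the same difference at 8 h by the interaction of drug and time. Without the 3 arrays the 24 h value rests on TFT replicate 2. Each gene's values are given without the 3 arrays first and then as labelled, where the 8 h groups hold arrays whose profiles went against their labels. FOS was 3.91 at 8 h and 3.93 at 24 h (interaction adjusted p = 0.948) and 1.58 and 4.46 as labelled (adjusted p = 0.215). ATF3 was 2.40 at 8 h and 2.75 at 24 h (interaction adjusted p = 0.224) and 1.35 and 3.5 as labelled (adjusted p = 0.115), PPP1R15A 2.64 at 8 h and 2.92 at 24 h (interaction adjusted p = 0.281) and 1.05 and 3.18 as labelled (adjusted p = 0.178) and TNFAIP3 3.72 at 8 h and 3.85 at 24 h (interaction adjusted p = 0.789) and 1.26 and 4.02 as labelled (adjusted p = 0.249). The interaction passed for none of these 4 genes in either fit, and a p that misses the threshold does not show that the values are equal. Without the 3 arrays it passed for other members of the immediate early, NF-kB and MAPK lists. KLF10 was 2.25 at 8 h and 3.91 at 24 h (interaction adjusted p = 0.00257) and 0.44 and 3.77 as labelled (adjusted p = 0.0728), and NFKB2 2.15 at 8 h and 2.77 at 24 h (interaction adjusted p = 0.0225) and 0.76 and 2.73 as labelled (adjusted p = 0.15), both larger at 24 h. IL24 was 3.17 at 8 h and 2.40 at 24 h (interaction adjusted p = 0.0261) and 1.41 and 3.10 as labelled (adjusted p = 0.37), and ERRFI1 2.24 at 8 h and 1.29 at 24 h (interaction adjusted p = 0.00442) and 0.82 and 1.5 as labelled (adjusted p = 0.646), both smaller at 24 h without the 3 arrays and larger as labelled. As labelled none of these 4 passed.

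Among the other genes described above, LARS1 was 0.13 at 8 h and 2.23 at 24 h (interaction adjusted p = 0.000396) and 0.02 and 2.19 as labelled (adjusted p = 0.00056). ASNS was 0.72 at 8 h and 2.05 at 24 h (interaction adjusted p = 0.000727) and 0.46 and 2.27 as labelled (adjusted p = 0.00297), and CTH 1.89 at 8 h and 3.39 at 24 h (interaction adjusted p = 0.00248) and 1.01 and 3.83 as labelled (adjusted p = 0.0202). The respiratory chain gene NDUFB7 was -0.32 at 8 h and -2.34 at 24 h (interaction adjusted p = 0.000195) and -0.03 and -2.29 as labelled (adjusted p = 0.000936), FST -0.91 at 8 h and -3.31 at 24 h (interaction adjusted p = 0.000303) and -0.04 and -3.0 as labelled (adjusted p = 0.00897) and PMAIP1 1.28 at 8 h and 2.66 at 24 h (interaction adjusted p = 0.00131) and 0.39 and 2.61 as labelled (adjusted p = 0.0267). For these 6 genes the interaction passed in both fits. GDF15 was -0.24 at 8 h and -2.31 at 24 h (interaction adjusted p = 0.000454) and 0.88 and -0.92 as labelled (adjusted p = 0.314), so that its interaction passed only without the 3 arrays.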

How the data were processed

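RNA of the 12 arrays was amplified, biotin-labelled and hybridised to 1 chip, per the labels. The deposited scanner table gives, per the file headers, the mean intensity of each probe on a linear scale and a detection p-value for each probe, both from the authors' GenomeStudio run (submitters' processing notes; its version is not given in the sources used here). The authors' processed intensity table of the same arrays was used only as an alternative.

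Scanner intensities were background-corrected with the detection p-values, quantile-normalized and put on the log2 scale with limma's neqc (offset 16; limma 3.58.1, R 4.3.3). Probes with a detection p under 0.05 on at least 2 arrays were kept, 24325 of 47230, of which 15954 had 1 gene symbol. The brightest probe of a gene by mean over arrays stood for it, which left 12131 genes. Group means were fitted with lmFit and eBayes, and p-values were adjusted by Benjamini-Hochberg over all genes, with a threshold of 0.05. The fit as labelled has 7 residual degrees of freedom and the fit without the 3 arrays has 4. The number of arrays limits the precision. The fits were tested on simulated data with independent noise and every array true to its label. Those tests do not cover arrays that go against their labels, or the choice of arrays.

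Named genes are, in each fit, the 10 largest rises and falls whose arrays do not overlap, up to 4 leading members of each list, up to 3 leading members of each stress list for TFT replicate 2 against control, and 23 fixed genes, of which 22 were measured, in all 149 genes; others are said to be named after their values were seen. The comparison, its members and the gene lists were chosen with earlier results of these data known. Alternatives changed the arrays in the fit, the background correction, scaling, offset, filter, probe summary, moderation, replicate block and table. Crossed pairing, the signs of list medians and list medians with dim genes at their bounds were added after the data were seen.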

Additional observations from a re-analysis of the deposited data

Results flagged for a closer look

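The difference between LTM and TFT at 24 h was compared with that at 8 h by an interaction term of drug and time over the 149 named genes. It passed an adjusted p of 0.05 (limma) for 95 of them as labelled and for 115 in the fit without the 3 arrays. Of all 12131 genes tested, it passed for 3441 as labelled and for 4548 without the 3 arrays. Many of the named genes were chosen for a large difference at 24 h, which is part of the interaction term. A higher share among them is therefore partly built in by the choice and is a description.

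For 3 genes the difference turned direction between the times and passed at both in the fit without the 3 arrays. CCL2 was at 2.21 at 8 h and at -2.94 at 24 h (interaction adjusted p = 4.2e-05, limma), and as labelled at 0.99 and -2.55 (0.0163). IL1B was at 1.69 at 8 h and -1.74 at 24 h (interaction adjusted p = 0.000239, limma). HMOX1 was at -0.55 at 8 h and 0.95 at 24 h (interaction adjusted p = 0.000638, limma). As labelled, the interaction passed for IL1B and HMOX1 too (0.0358 and 0.0483, limma).

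Probes without a gene symbol were left out of the comparisons. Of 8371 that passed the detection filter, 2431 differed between LTM and TFT as labelled and 2888 with TFT replicate 2 only, at the same threshold. The groups held 2 arrays each, too few to look for a single outlying array by the usual range test.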

How the results depend on the processing

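Leaving out 1 array at a time gave 3651 to 6443 genes for LTM against TFT as labelled, the fewest without LTM 24 h replicate 2, and 6900 to 7393 with TFT replicate 2 only. For LTM against control the ranges were 3724 to 6437 and 6716 to 7702, for TFT against control 0 to 2 and 3 to 266 (16 without control replicate 1, 3 without control replicate 2), and for the drug-by-time term over the named genes 58 to 97 and 106 to 118. A fit of 11 arrays, without TFT 24 h replicate 1 alone, called 4421 genes for LTM against TFT and 0 for TFT against control. TFT against control as labelled gave 5 genes with the control and 24 h arrays only and 2 with no background correction. With TFT replicate 2 only, its 158 genes became 51 with those arrays only, 301 with trended and robust moderation, 276 with no background correction, 331 with median scaling, 403 with an offset of 50, 98 with no filter, 245 with probes detected on all arrays of a group, and 73 from the processed table. With the replicate number as a block, LTM against TFT called 6131 and 6696 genes, and TFT against control 0 and 38. Whether the numbers pair the arrays is not known. Same-numbered deviations from the group means correlated between -0.62 and 0.69 over 21 pairs and at -0.25 for TFT and LTM at 24 h. In a group of 2 arrays the deviations mirror each other, so these correlations cannot decide it. Crossed pairing, chosen after seeing the data, called 6441 and 6529 genes for LTM against TFT and 25 for TFT replicate 2 against control. Of the 149 named genes, at most 27 lost the call as labelled, without LTM 24 h replicate 2, and at most 31 with TFT replicate 2 only, in the fit of 11 arrays. The 1 reversed call was ACTB, at 0.44 by the mean of its probes. The causes were not tested. Depth here is signal over background, which leaves bounds for genes detected under 1 drug.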
